A study of Homo sapiens with 18 samples.

Results

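The 10 genes EYA4, RBMS1, CA3, PITX1, SERPINB1, CYTL1, SLFN13, CALB2, SSUH2 and RUNX1T1 form a named list that was chosen by their scaled TPM values: they differed strongly between HUDEP-2 cells with a disrupted HBB gene and unedited HUDEP-2 cells, and they have no evident tie to globin or to the stress factor ATF4. They are 10 of the 35616 genes listed in the deposited table, and of the 12005 that were tested; 25969 had a value above 0 somewhere. HUDEP-2 is an immortalised line of human erythroid progenitors from cord blood. RNA was sequenced from HBBko cells undifferentiated, at 48 h and at 5 d of differentiation, and from WT cells, which carry no such disruption, at the same stages, with 3 libraries in each of the 6 groups. The labels name 1 HBBko line and 1 WT line without a number of clones, so a difference between clones and an effect of HBB loss cannot be told apart for any of the 10 genes. They also do not say whether the triplicates were started independently, so p-values measure only the spread between these libraries. The differences between the lines chose the genes and are described below without a test. The changes between stages within each line did not choose them, and were tested with limma across all 12005 genes.

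A line grown from few edited cells can carry expression states of those founder cells in addition to what the edit itself changes. In erythroid culture, maturation shuts down most progenitor genes while globin and red cell genes come to dominate the RNA. The listed genes cover several roles: transcriptional regulators (EYA4, PITX1, RUNX1T1), proteins that act on RNA or single-stranded nucleic acid (RBMS1, SLFN13), a secreted cytokine-like protein (CYTL1), a protease inhibitor (SERPINB1), an enzyme (CA3), a calcium buffer (CALB2) and a little studied protein (SSUH2).

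Values are in scaled TPM, a level per transcript length that the authors had also scaled between libraries, whose sums were 783213 to 1508342. Read depth is not known. Each library held 10410 to 11294 genes at 1 scaled TPM or more. HBB, which encodes beta-globin and checks the labels, averaged 4808, 23097 and 70806 scaled TPM in HBBko cells at the 3 stages in order, against 15782, 111681 and 439258 in WT cells, and every HBBko library was below every WT library of its stage. All 10 erythroid markers examined passed the filter on low values, and their summed level reached 183369 to 189887 scaled TPM in HBBko cells and 174029 to 179565 in WT cells at 5 d. Megakaryocyte, myeloid, lymphoid, and stromal and endothelial lists each summed to under 5 scaled TPM in every library, with PF4, PPBP, CD3E, MS4A1 and CD2 listed at 0 throughout. The low megakaryocyte sums did not overlap between the lines at any stage. They were lower in HBBko libraries undifferentiated (1.67 to 2.02 against 4.19 to 4.57 in WT) and at 48 h, and higher at 5 d (0.821 to 1.04 against 0.388 to 0.654). A list of 7 mast cell, basophil and eosinophil genes was higher in HBBko libraries without overlap at each stage, with sums of 912.0 to 1046 in HBBko and 581.0 to 789.0 in WT cells undifferentiated, 19.0 to 23.8 and 15.3 to 17.2 at 48 h, and 27.4 to 38.8 and 22.3 to 23.9 at 5 d. TPSAB1, TPSB2 and PRG2 led that list and CLC was listed at 0 in every library. The part of these markers in the differences below was not tested, and in bulk RNA fewer cells of a type and less RNA per cell cannot be told apart.

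The label of genes that differ at every stage held for 8 of the 10. In these 8 the HBBko and WT libraries did not overlap at any stage, always in the same direction: EYA4, SERPINB1, CYTL1 and SSUH2 were higher in HBBko cells, and RBMS1, SLFN13, CA3 and PITX1 were lower. All 8 also differed by at least 1 on the log2(scaled TPM + 1) scale at each stage. That size rested on single libraries for PITX1 and SSUH2: without replicate 3 of undifferentiated WT both fell short of it undifferentiated (-0.73 and 0.87), leaving 6 genes, and SSUH2 also fell short without replicate 1 of undifferentiated WT or of undifferentiated HBBko. PITX1 fell short with median-of-ratios scaling, and with a pseudocount of 5 CA3 and RBMS1 were the 2 genes that reached 1 at every stage. Of the 12005 tested genes, 14.2% (1709 genes) kept the lines apart in 1 direction at all 3 stages. Counted without regard to overlap, 0.333% (40 genes, 11 higher and 29 lower in HBBko) reached that size in 1 direction at all 3 stages. Since this contrast chose the genes, nothing is read from these shares. CALB2 and RUNX1T1 went against the label. CALB2 was higher in undifferentiated HBBko cells, overlapped at 48 h and was lower in HBBko cells at 5 d, and RUNX1T1 overlapped in undifferentiated cells and was higher in HBBko cells at 48 h and 5 d.

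All 10 genes passed the filter on low values (3 libraries or more at 1 scaled TPM), but not through the same libraries. CYTL1, SSUH2 and CA3 reached it in all 18 libraries. RBMS1 and SLFN13 reached it in the 9 WT libraries and in no HBBko library, and CALB2 only in the 6 undifferentiated libraries. RUNX1T1 reached it in every HBBko library at 48 h and 5 d, in every WT library at 5 d, and in no other. PITX1 reached it in no HBBko library before 5 d, and EYA4 in no WT library at 48 h or 5 d. SERPINB1 reached it in 1 WT library at 48 h and in no WT library at 5 d. None of the 10 was listed at 0 in any library.

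**Figure D1:**
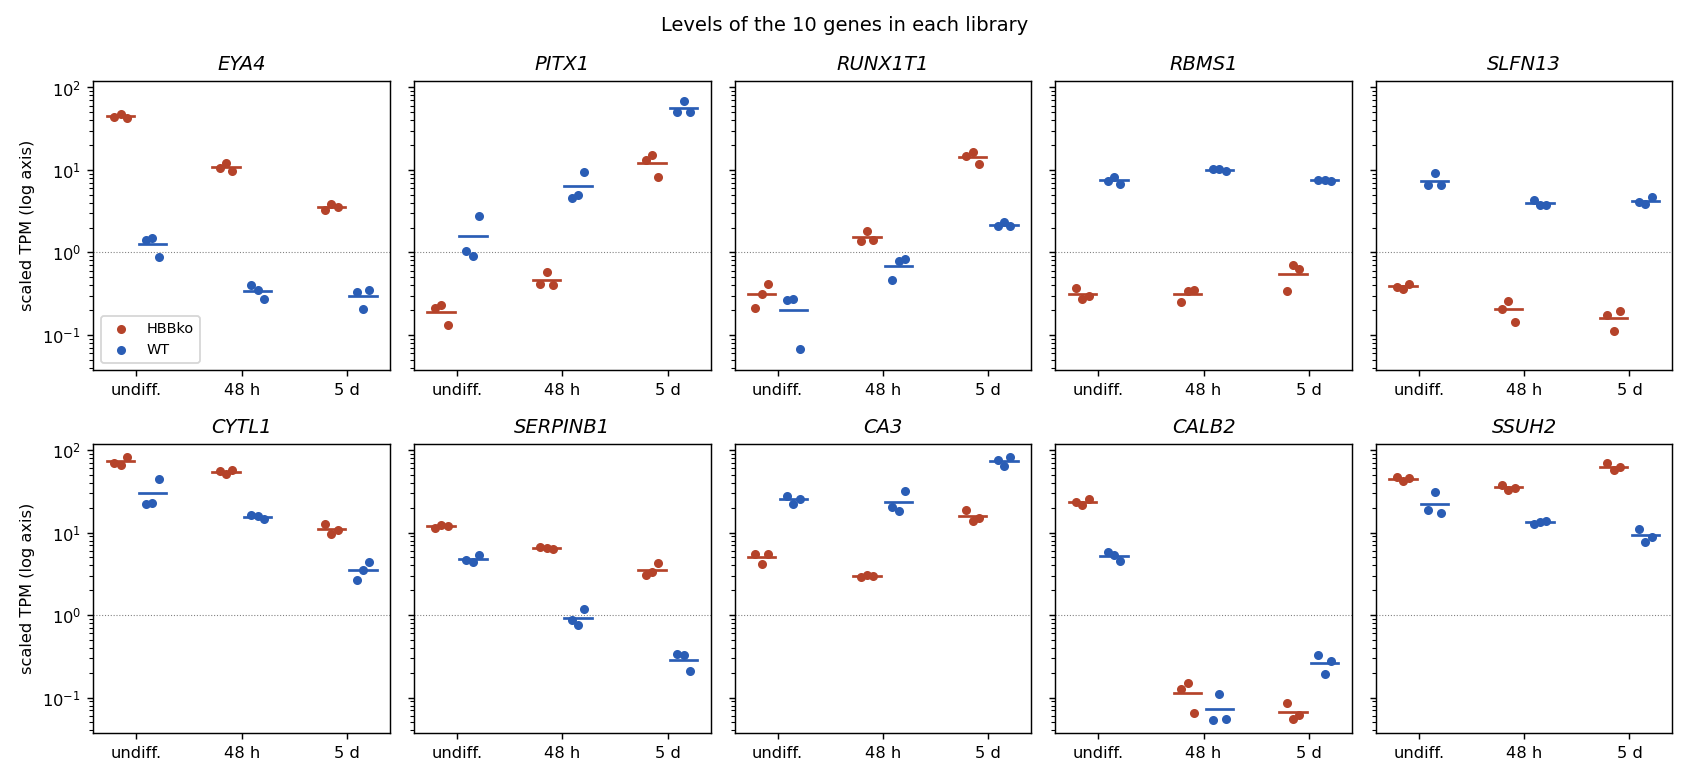
Level of each of the 10 genes in each of the 18 libraries, in scaled TPM on a log axis, with undifferentiated, 48 h and 5 d from left to right, HBBko in red left of WT in blue, horizontal bars at the mean of 3 libraries and a dotted line at 1 scaled TPM. The red and blue points of RBMS1 and SLFN13 keep far apart at every stage, EYA4 and SERPINB1 are highest undifferentiated in both lines, PITX1 and RUNX1T1 are highest at 5 d in both, and the CALB2 points of both lines drop together below 1 after the undifferentiated stage.

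Promoter sequences were taken from RefSeq on GRCh38.p14, where 6 of the 10 genes matched with 7 promoters. The 250 bases before the start are shown for EYA4 and SERPINB1, higher in HBBko cells, and for RBMS1 and PITX1, lower in HBBko cells, so that both directions can be read side by side; capitals mark matches to CCNCNCCC, the core bound by KLF1-type factors, on either strand. The windows are chr6:133241107-133241356, plus strand, for EYA4, chr6:2841864-2842113, minus strand, for SERPINB1, chr2:160493808-160494057, minus strand, for RBMS1, and chr5:135034229-135034478, minus strand, for PITX1. The starts are those of RefSeq and differ from the GENCODE spans given below. By those spans the EYA4 and PITX1 windows lie inside the gene, and the SERPINB1 window lies partly inside it.
EYA4: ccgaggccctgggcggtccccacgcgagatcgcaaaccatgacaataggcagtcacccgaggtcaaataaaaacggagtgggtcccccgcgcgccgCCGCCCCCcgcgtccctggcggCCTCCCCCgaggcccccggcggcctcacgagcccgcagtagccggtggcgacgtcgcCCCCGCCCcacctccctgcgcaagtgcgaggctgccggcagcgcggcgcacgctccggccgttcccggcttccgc
SERPINB1: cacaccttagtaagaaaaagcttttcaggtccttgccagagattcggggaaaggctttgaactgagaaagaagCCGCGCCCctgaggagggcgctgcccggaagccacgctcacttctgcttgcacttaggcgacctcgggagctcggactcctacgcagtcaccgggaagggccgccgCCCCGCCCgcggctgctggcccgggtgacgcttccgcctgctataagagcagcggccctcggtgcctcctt
RBMS1: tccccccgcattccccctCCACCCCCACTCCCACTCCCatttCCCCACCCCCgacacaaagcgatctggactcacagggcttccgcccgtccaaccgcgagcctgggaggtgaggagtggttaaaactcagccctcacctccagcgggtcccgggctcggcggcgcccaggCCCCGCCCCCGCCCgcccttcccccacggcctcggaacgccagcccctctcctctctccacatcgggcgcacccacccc
PITX1: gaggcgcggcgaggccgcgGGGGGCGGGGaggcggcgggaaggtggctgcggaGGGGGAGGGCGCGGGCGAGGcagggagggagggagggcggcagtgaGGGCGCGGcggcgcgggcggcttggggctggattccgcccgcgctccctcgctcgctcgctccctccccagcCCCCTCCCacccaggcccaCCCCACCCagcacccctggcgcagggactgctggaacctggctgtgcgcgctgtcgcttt
The CCNCNCCC core was found in 6 of the 7 matched promoters, not in the second one of SSUH2, and in 53.4% of the 35116 promoters of the table. The ATF4 response element core TGATGNAA was found in 0 of the 7, against 3.14% of all promoters. No match was found either for the GATA core AGATAA (9.17% of all) or the TATA box TATAAA (10.7% of all), and the E-box CAGCTG was found in 1 promoter of SSUH2 alone (14% of all). Both strands were searched, a promoter counted once per motif, and matches of different motifs were allowed to overlap. GC content was 75.2% in EYA4, 63.6% in SERPINB1, 71.6% in RBMS1 and 79.2% in PITX1, against a median of 58.0% over all promoters, and it was 66.8% in CYTL1 and 52.4% in SSUH2. A match is a description of letters, not a measured binding site.

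EYA4 (chromosome 6, 133240598 to 133532120, plus strand, GRCh38) encodes a coactivator and phosphatase that works with sine oculis homeodomain proteins. Undifferentiated cells had 43.5, 47.3 and 43.0 scaled TPM in HBBko and 1.41, 1.49 and 0.877 in WT libraries. At 48 h the HBBko libraries held 10.7, 12.2 and 9.64 scaled TPM and the WT libraries 0.404, 0.349 and 0.271. At 5 d they held 3.31, 3.82 and 3.51 in HBBko and 0.328, 0.208 and 0.352 in WT. The lowest HBBko library of any stage was thus above the highest WT library of any stage, which was also true of SSUH2 and, in the opposite direction, of RBMS1 and SLFN13. The ratio of the means was 35.5, 31.7 and 12 at the 3 stages, so it shrank as the gene fell, and by size of the log2 difference EYA4 ranked 1st, 1st and 47th of the 12005 genes. In HBBko cells EYA4 fell by 1.95 ± 0.10 (log2, SE) at 48 h relative to undifferentiated cells (limma, adjusted p = 4e-11) and by 1.38 ± 0.10 at 5 d relative to 48 h (adjusted p = 1.4e-09). In WT cells it fell by 0.74 ± 0.10 at 48 h (limma, adjusted p = 7.8e-06), and its change at 5 d was -0.05 ± 0.10 (adjusted p = 0.67).

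Of the 11 other genes of the network of EYA proteins and their sine oculis partners that were looked up, 3 passed the filter, with median log2 differences of -0.14, -0.02 and -0.04 at the 3 stages, against -0.01, 0.02 and 0.02 over all tested genes. EYA3, another coactivator of the family, was higher in HBBko cells undifferentiated (16.2 ± 1.02 scaled TPM in HBBko and 13 ± 1.85 in WT cells, SD, n = 3 each, limma, adjusted p = 0.0062) and at 5 d (log2 difference 0.46, adjusted p = 0.00018). At 48 h its difference of 0.22 did not pass (limma, adjusted p = 0.075). SIX5 was lower at 5 d (-0.31, limma, adjusted p = 0.0049) and DACH1, a corepressor of the network, was lower in undifferentiated cells (-0.20, adjusted p = 0.039). SIX2, SIX3, SIX6, DACH2 and EYA2 averaged under 0.04 scaled TPM in every group.

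PITX1 (chromosome 5, 135027735 to 135034813, minus strand) encodes a homeodomain transcription factor of hindlimb and pituitary development. In undifferentiated cells HBBko libraries had 0.211, 0.228 and 0.130 scaled TPM and WT libraries 1.04, 0.909 and 2.75. At 48 h the values were 0.414, 0.573 and 0.406 in HBBko and 4.61, 4.99 and 9.56 in WT. At 5 d they were 13.1, 15.1 and 8.27 in HBBko and 50.4, 68.4 and 50.9 in WT. The WT mean was 8.26, 13.8 and 4.65 times the HBBko mean at the 3 stages, and the groups never overlapped. Replicate 3 of WT stood above the other 2 libraries at the first 2 stages. HBB was also highest in those libraries, with 22376 against 12517 and 12454 scaled TPM, and 132741 against 99196 and 103106. Without them the difference moved to -0.73 undifferentiated (-1.04 with all libraries) and to -1.99 at 48 h (-2.28 with all libraries). The highest PITX1 levels came late in both lines. At 5 d relative to 48 h it rose by 3.13 ± 0.26 (log2, SE) in HBBko cells and by 3.01 ± 0.26 in WT cells. At 48 h relative to undifferentiated cells it rose by 1.53 ± 0.26 in WT cells, and the HBBko change was 0.30 ± 0.26. With a pseudocount of 0.1 that HBBko change was 0.97. PITX1 reached 1 scaled TPM in HBBko cells at 5 d only, and undifferentiated in 2 WT libraries. It passed the filter mainly through later libraries, where it is high, so these changes are given as a description without a test. PITX3, a relative of PITX1, averaged under 0.04 scaled TPM in every group.

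RUNX1T1 (chromosome 8, 91954967 to 92103286, minus strand) encodes ETO, a corepressor known as the fusion partner of RUNX1 in acute myeloid leukaemia. Undifferentiated cells had 0.210, 0.309 and 0.410 scaled TPM in HBBko and 0.267, 0.276 and 0.0674 in WT libraries. At 48 h HBBko libraries had 1.36, 1.83 and 1.42 and WT libraries 0.467, 0.778 and 0.825. At 5 d HBBko libraries had 14.6, 16.5 and 11.9 and WT libraries 2.08, 2.34 and 2.07. The lines overlapped before differentiation and separated after it, with the HBBko mean 2.23 times the WT mean at 48 h and 6.62 times at 5 d. RUNX1T1 rose at each step in both lines. In HBBko cells the log2 change was 0.95 ± 0.12 at 48 h and 2.59 ± 0.12 at 5 d relative to 48 h. In WT cells these changes were 0.49 ± 0.12 and 0.91 ± 0.12. With a pseudocount of 5 the WT change at 48 h was 0.13. RUNX1T1 passed the filter only through later libraries, where it is high, so these changes are given as a description without a test.

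Of 20 other genes of ETO corepressor and erythroid transcription complexes, 19 were tested. In HBBko cells 3 were higher and 4 lower undifferentiated, 1 higher and 1 lower at 48 h, and 6 higher and 7 lower at 5 d, where 43.3%, 18.7% and 51.3% of all tested genes were called in either direction at the 3 stages. Their median log2 differences were 0.03, -0.03 and -0.14, against -0.01, 0.02 and 0.02 over all tested genes. RUNX1, the haematopoietic transcription factor, was lower at all 3 stages, with 16.4 ± 1.79 scaled TPM in HBBko and 24.4 ± 1.24 in WT cells undifferentiated (SD, n = 3 each, limma, adjusted p = 0.001), and log2 differences of -0.42 at 48 h (adjusted p = 0.017) and -0.63 at 5 d (adjusted p = 0.00019). HDAC1, a histone deacetylase, was higher at all 3 stages (0.15, 0.16 and 0.52, limma, adjusted p = 0.0085, 0.015 and 3.1e-08). Of the nearest relatives of RUNX1T1, CBFA2T3 was called at no stage (limma, adjusted p = 0.18, 0.36 and 0.069), and CBFA2T2 was lower at 5 d, with 1.86 ± 0.182 scaled TPM in HBBko and 3.14 ± 0.50 in WT cells (SD, n = 3 each, adjusted p = 0.00017).

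RBMS1 (chromosome 2, 160272151 to 160493794, minus strand) encodes a protein that binds single-stranded DNA and RNA. HBBko libraries had 0.367, 0.274 and 0.293 scaled TPM undifferentiated, and WT libraries 7.40, 8.28 and 6.77. At 48 h HBBko libraries had 0.253, 0.344 and 0.351 and WT libraries 10.3, 10.2 and 9.65. At 5 d HBBko libraries had 0.340, 0.695 and 0.622 and WT libraries 7.63, 7.53 and 7.26. Every HBBko library was under 1 scaled TPM and every WT library was over 6, so the WT mean was 24.0, 31.8 and 13.5 times the HBBko mean. Within WT cells RBMS1 rose at 48 h (0.39 ± 0.09, limma, adjusted p = 0.0011) and fell at 5 d relative to 48 h (-0.38 ± 0.09, adjusted p = 0.00078). With library sums made equal, the rise did not pass (0.20, limma, adjusted p = 0.091; 2e-05 to 0.091 over the alternatives). In HBBko cells the change at 48 h was 0.01 ± 0.09 (limma, adjusted p = 0.96). The rise at 5 d in HBBko cells was small (0.23 ± 0.09, limma, adjusted p = 0.025) with overlapping libraries, and was not called without replicate 1 at 48 h (0.20, adjusted p = 0.091) or without replicate 2 (0.16, adjusted p = 0.13) or 3 (0.20, adjusted p = 0.088) at 5 d. It was also not called with equal sums (0.10, limma, adjusted p = 0.39), with a pseudocount of 5 (0.06, adjusted p = 0.18) or with the compared groups alone (0.23, adjusted p = 0.055). RBMS2 and RBMS3 averaged under 0.7 scaled TPM in every group and were not tested.

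SLFN13 (chromosome 17, 35435096 to 35448837, minus strand) encodes an endoribonuclease that cuts tRNA and rRNA. Undifferentiated HBBko libraries had 0.382, 0.361 and 0.414 scaled TPM and WT libraries 6.60, 9.14 and 6.49. At 48 h the values were 0.207, 0.259 and 0.145 in HBBko and 4.29, 3.79 and 3.73 in WT, and at 5 d 0.176, 0.112 and 0.196 in HBBko and 4.12, 3.89 and 4.65 in WT. As for RBMS1, no HBBko library of any stage came near a WT library, and the WT mean was 19.2, 19.3 and 26.2 times the HBBko mean. SLFN13 fell in WT cells at 48 h (-0.76 ± 0.10, limma, adjusted p = 5.4e-06). In HBBko cells the change was -0.20 ± 0.10 (limma, adjusted p = 0.092), which was called without replicate 2 of undifferentiated WT (-0.20, adjusted p = 0.026), with a pseudocount of 0.1 (-0.69, adjusted p = 0.0027) and with the compared groups alone (-0.20, adjusted p = 0.034), 0.0027 to 0.48 over the alternatives. At 5 d relative to 48 h neither line's change was called (-0.05 ± 0.10 in HBBko and 0.08 ± 0.10 in WT cells, limma, adjusted p = 0.66 and 0.48), and the WT change turned to a fall with equal sums (-0.42, adjusted p = 0.0029) and to a called rise with median-of-ratios scaling (0.23, adjusted p = 0.042). SLFN14, the only other schlafen tested, was higher in HBBko cells at 5 d (46.0 ± 4.03 scaled TPM in HBBko and 27.7 ± 0.786 in WT cells, SD, n = 3 each, limma, adjusted p = 1.6e-05). SLFN12, which was too low to be tested, averaged 0.0398, 0.0426 and 0.0593 scaled TPM in HBBko cells against 0.299, 0.26 and 0.25 in WT cells. The means of SLFN5 and SLFN12L, also not tested, were higher in HBBko cells at some stages and lower at others. SLFN11 shares 9.27% of the 31-base words of SLFN13 transcripts and averaged at most 0.0809 scaled TPM in any group.

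CYTL1 (chromosome 4, 5014586 to 5019472, minus strand) encodes a secreted cytokine-like protein found in CD34 positive blood progenitors. HBBko libraries had 70.7, 66.3 and 82.8 scaled TPM undifferentiated, and WT libraries 22.3, 23.0 and 45.3. At 48 h HBBko libraries had 55.8, 51.8 and 57 and WT libraries 16.4, 15.9 and 14.5. At 5 d HBBko libraries had 12.8, 9.62 and 10.8 and WT libraries 2.64, 3.48 and 4.45. The lines kept apart at all stages, with the HBBko mean 2.42, 3.51 and 3.14 times the WT mean. Replicate 3 of undifferentiated WT stood above its group, and without it the undifferentiated difference was 1.64 rather than 1.32. At 5 d relative to 48 h CYTL1 fell by 2.22 ± 0.20 in HBBko cells (limma, adjusted p = 1.3e-08) and by 1.89 ± 0.20 in WT cells (adjusted p = 9.9e-08). In WT cells it fell by 0.84 ± 0.20 at 48 h (limma, adjusted p = 0.0014), against -0.51 without that library (adjusted p = 0.0036). In HBBko cells the change of -0.41 ± 0.20 at 48 h did not pass (limma, adjusted p = 0.082). It was called without replicate 3 of undifferentiated WT (-0.41, limma, adjusted p = 0.0078), with equal sums (-0.51, adjusted p = 0.017) and with the compared groups alone (-0.41, adjusted p = 0.0016), 0.0016 to 0.23 over the alternatives.

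Of 14 other genes of CD34 positive progenitors, 5 were tested, and in HBBko cells 1 was higher and 1 lower undifferentiated, 1 was higher at 48 h, and 1 was higher and 1 lower at 5 d, beside 43.3%, 18.7% and 51.3% called in either direction of all tested genes. Their median log2 differences were 0.09, -0.10 and -0.04, against -0.01, 0.02 and 0.02 over all tested genes. GATA2, a progenitor and mast cell transcription factor, was higher undifferentiated (210.0 ± 33.3 scaled TPM in HBBko and 109.0 ± 26.5 in WT cells, SD, n = 3 each, limma, adjusted p = 0.00017). AVP, which encodes vasopressin, averaged 0.575 ± 0.214 scaled TPM in HBBko and 2.82 ± 0.597 in WT cells undifferentiated (SD, n = 3 each). It is the 1 lower gene counted there, but it passed the filter only through those WT libraries, so its difference is a description. KIT was higher at 48 h (0.27, limma, adjusted p = 0.016), MLLT3 higher at 5 d (0.39, adjusted p = 0.00022) and CRHBP lower at 5 d (-0.82, adjusted p = 0.0014). CD34 itself averaged under 0.09 scaled TPM in every group.

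SERPINB1 (chromosome 6, 2832332 to 2842006, minus strand) encodes a clade B serpin that inhibits neutrophil granule proteases. Undifferentiated HBBko libraries had 11.5, 12.4 and 12.2 scaled TPM and WT libraries 4.62, 4.44 and 5.29. At 48 h the values were 6.73, 6.50 and 6.42 in HBBko and 0.875, 0.758 and 1.17 in WT. At 5 d they were 3.03, 3.35 and 4.25 in HBBko and 0.333, 0.326 and 0.209 in WT. The groups did not overlap, and the HBBko mean was 2.51, 7.02 and 12.3 times the WT mean, a ratio that grew as the gene fell in both lines. It fell by 0.78 ± 0.10 in HBBko cells at 48 h (limma, adjusted p = 2.3e-06) and by 1.58 ± 0.10 in WT cells (adjusted p = 3.2e-10). At 5 d relative to 48 h it fell by 0.74 ± 0.10 in HBBko cells (limma, adjusted p = 2.4e-06) and by 0.58 ± 0.10 in WT cells (adjusted p = 3.8e-05). The protease genes ELANE and CTSG averaged at most 0.0199 scaled TPM and PRTN3 at most 0.432 in any group. SERPINB6, which lies 106 kb from SERPINB1 and encodes another intracellular serpin, was the only other one of the list that passed the filter. Its WT libraries alone would not have met the filter, so its difference is given as a description without a test. Its mean was higher in HBBko cells at all 3 stages. SERPINB6 averaged 4.06 ± 0.861 scaled TPM in HBBko libraries and 1.13 ± 0.415 in WT libraries undifferentiated (SD, n = 3 each). The means were 2.18 ± 0.164 and 0.201 ± 0.0175 at 48 h, and 0.573 ± 0.192 and 0.111 ± 0.0426 at 5 d. SERPINB1 and SERPINB6 transcripts share no 31-base word.

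CA3 (chromosome 8, 85373436 to 85449040, plus strand) encodes a carbonic anhydrase of muscle and fat with low hydratase activity. HBBko libraries had 5.47, 4.12 and 5.51 scaled TPM undifferentiated, and WT libraries 27.6, 22.4 and 25.8. At 48 h HBBko libraries had 2.89, 3.05 and 3.01 and WT libraries 20.6, 18.5 and 31.6. At 5 d HBBko libraries had 18.7, 13.7 and 15.1 and WT libraries 75.7, 63.5 and 82.9. The lines did not overlap at any stage, and the WT mean was 5.03, 7.90 and 4.68 times the HBBko mean. Both lines rose at 5 d relative to 48 h, by 2.07 ± 0.16 in HBBko cells (limma, adjusted p = 1.9e-09) and by 1.64 ± 0.16 in WT cells (adjusted p = 4.2e-08). At 48 h CA3 fell in HBBko cells (-0.59 ± 0.16, limma, adjusted p = 0.0038). The WT change of -0.13 ± 0.16 did not pass (limma, adjusted p = 0.49), but was -0.35 and called without replicate 3 at 48 h (adjusted p = 0.035; 0.035 to 0.97 over the alternatives). That library held the highest CA3 of its group.

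The red cell carbonic anhydrases CA1 and CA2 were far more abundant than CA3. Of 14 other carbonic anhydrases 5 were tested, with median log2 differences of -0.20, -0.10 and -0.11 at the 3 stages, against -0.01, 0.02 and 0.02 over all tested genes. CA1 averaged 6910, 13889 and 22672 scaled TPM in HBBko cells at the 3 stages and 7953, 15688 and 24505 in WT cells, with no called difference (limma, adjusted p = 0.068, 0.18 and 0.29). CA2 was higher in HBBko cells undifferentiated (796.0 ± 61.9 scaled TPM in HBBko and 657.0 ± 85.4 in WT cells, SD, n = 3 each, limma, adjusted p = 0.017) and not called at 48 h or 5 d (adjusted p = 0.47 and 0.52). CA8 was lower undifferentiated (-0.51, limma, adjusted p = 5.4e-05), and CA5B and CA11 were lower at 5 d (-0.82 and -1.09, adjusted p = 0.00012 and 0.00037). CA1 lies on the opposite strand and its annotated span overlaps that of CA3, and the library kit does not mark strand, but CA3 and CA1 transcripts share no 31-base word.

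CALB2 (chromosome 16, 71358713 to 71390438, plus strand) encodes calretinin, an EF-hand calcium buffer of neurons. Undifferentiated HBBko libraries had 23.3, 21.7 and 25.5 scaled TPM and WT libraries 5.86, 5.33 and 4.58. At 48 h HBBko libraries had 0.127, 0.149 and 0.0643 and WT libraries 0.0538, 0.110 and 0.0547. At 5 d HBBko libraries had 0.0853, 0.0547 and 0.0610 and WT libraries 0.327, 0.195 and 0.275. The lines were apart by a ratio of 4.47 in undifferentiated cells, overlapped at 48 h, and were in the opposite order at 5 d, all at levels under 1 scaled TPM after the undifferentiated stage. CALB2 was far lower in both lines at 48 h, with a log2 change of -4.46 ± 0.09 in HBBko and -2.54 ± 0.09 in WT cells. Since the gene passed the filter only through the undifferentiated libraries, where it is high, these differences are given as a description without a test. The change at 5 d in HBBko cells was -0.06 ± 0.09 (limma, adjusted p = 0.53). A small rise at 5 d in WT cells (0.24 ± 0.09, limma, adjusted p = 0.018) was not called without WT replicate 1 at 48 h (0.22, adjusted p = 0.05) or at 5 d (0.20, adjusted p = 0.069), with a pseudocount of 5 (0.05, adjusted p = 0.3) or with equal sums (0.13, adjusted p = 0.23), 0.00012 to 0.3 over the alternatives. CALB1, the only other EF-hand buffer tested, was lower in HBBko cells at 5 d (2.54 ± 0.407 scaled TPM in HBBko and 3.70 ± 0.741 in WT cells, SD, n = 3 each, limma, adjusted p = 0.041).

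SSUH2 (chromosome 3, 8619400 to 8745040, minus strand) encodes a protein linked to tooth dentin formation whose cellular role is little known. HBBko libraries had 47.7, 41.7 and 46.3 scaled TPM undifferentiated, and WT libraries 19.0, 31.1 and 17.1. At 48 h the values were 38.3, 32.9 and 35.0 in HBBko and 12.8, 13.6 and 13.9 in WT, and at 5 d 69.7, 57.3 and 62.3 in HBBko and 11.2, 7.80 and 8.90 in WT. The groups did not overlap, and the ratio of the HBBko to the WT mean grew over the stages, with 2.02, 2.63 and 6.78. Replicate 2 of undifferentiated WT stood above its group, and without it the undifferentiated difference was 1.28 rather than 1.03, while without replicate 3 of that group it was 0.87. SSUH2 was the one gene of the 10 called in opposite directions in the lines at 5 d relative to 48 h with no overlap in either: it rose in HBBko cells (0.82 ± 0.16, limma, adjusted p = 0.00015) and fell in WT cells (-0.50 ± 0.16, adjusted p = 0.008). The HBBko rise was not called with equal sums (0.37, limma, adjusted p = 0.053; 1.6e-06 to 0.053 over the alternatives), nor the WT fall with median-of-ratios scaling (-0.33, adjusted p = 0.058; 1.3e-05 to 0.058 over the alternatives). At 48 h it fell in WT cells (-0.65 ± 0.16, limma, adjusted p = 0.0017; -0.40 and adjusted p = 0.0065 without replicate 2). In HBBko cells the change of -0.35 ± 0.16 did not pass (limma, adjusted p = 0.064), but was called without replicate 2 (-0.35, adjusted p = 0.0068) or 3 (-0.35, adjusted p = 0.038) of undifferentiated WT. It was also called with equal sums (-0.45, limma, adjusted p = 0.028), with a pseudocount of 5 (-0.32, adjusted p = 0.047) and with the compared groups alone (-0.35, adjusted p = 0.0016), 0.0016 to 0.18 over the alternatives.

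**Figure D2:**
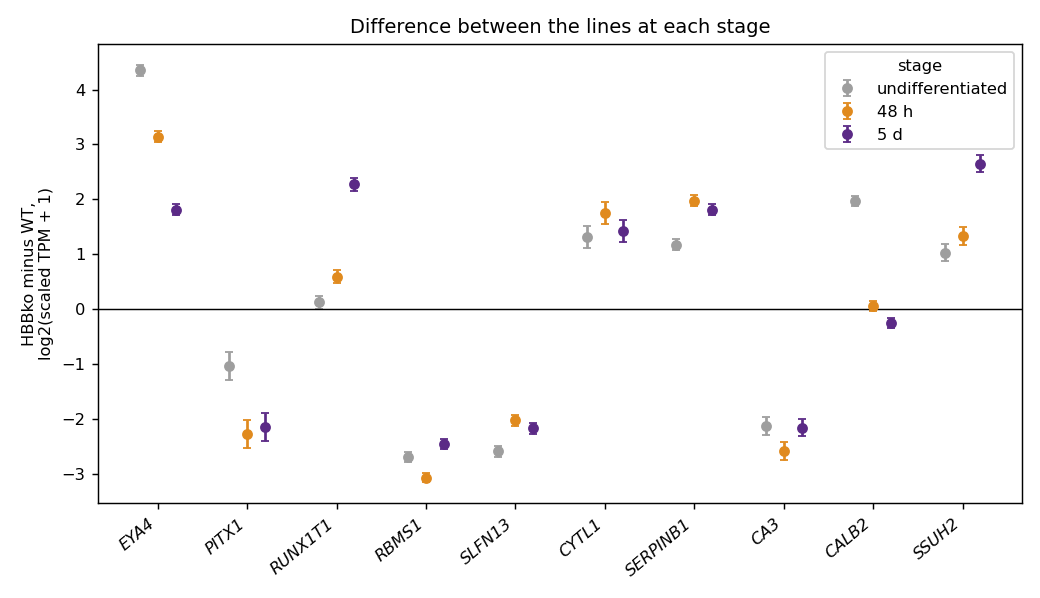
Difference between the lines for each of the 10 genes at each stage, as HBBko minus WT on the log2(scaled TPM + 1) scale, with bars of 1 SE from the fit of all 18 libraries. EYA4 shrinks over the stages (4.35, 3.14 and 1.81), SSUH2 (1.03, 1.33 and 2.65) and RUNX1T1 (0.12, 0.59 and 2.27) grow, RBMS1, SLFN13 and CA3 stay between -3.07 and -2.03, and CALB2 crosses 0 (1.97, 0.05 and -0.25).

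The size of the ratio of the means took different courses among the 10 genes. It grew from stage to stage in 4 (SERPINB1, SSUH2, RUNX1T1 and SLFN13), was largest at 48 h in 4 (CYTL1, RBMS1, CA3 and PITX1) and shrank in EYA4, while CALB2 changed direction. For SLFN13 the first step was only from 19.2 to 19.3, over HBBko means under 1 scaled TPM. As log2 differences, SLFN13 (-2.59, -2.03 and -2.17) and SERPINB1 (1.17, 1.97 and 1.81) did not grow at every step. On the log2(scaled TPM + 1) scale the difference is pulled toward 0 for genes near 1 scaled TPM. With a pseudocount of 0.1 the RBMS1 difference was -4.21, -4.62 and -3.58 at the 3 stages, against -2.69, -3.07 and -2.46 with a pseudocount of 1. In the authors' deposited tables the log2 fold change was 5.0 ± 0.23, 5.08 ± 0.22 and 3.78 ± 0.27 for EYA4 and -4.57 ± 0.33, -5.0 ± 0.26 and -3.81 ± 0.32 for RBMS1 at the 3 stages, with the standard errors given there. CALB2 is not listed at 48 h in the authors' deposited table, and is given there as -1.72 ± 0.75 at 5 d.

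**Figure D3:**
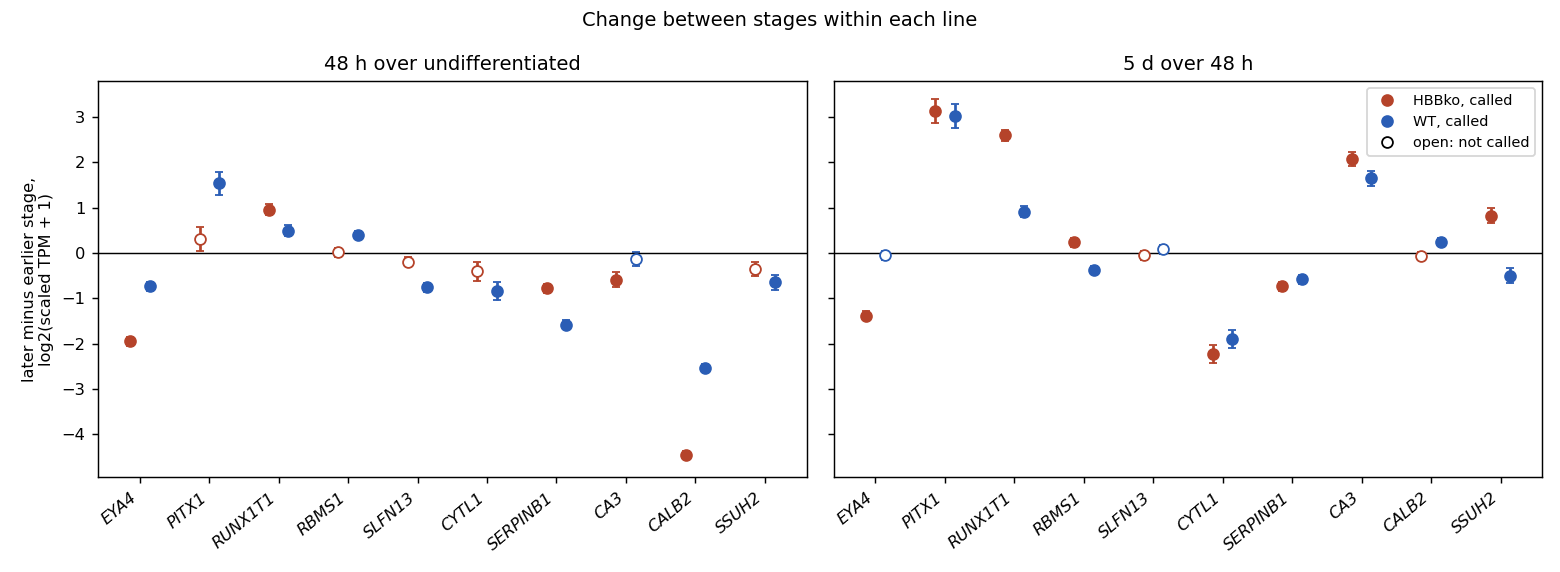
Change between stages within each line for the 10 genes, as later minus earlier stage on the log2(scaled TPM + 1) scale with bars of 1 SE, HBBko in red left of WT in blue, filled where called at an adjusted p under 0.05 (limma). At 48 h CALB2 has the lowest points (-4.46 and -2.54), and at 5 d PITX1 has the highest (3.13 and 3.01), while SSUH2 lies above 0 in HBBko and below 0 in WT cells. The filled points of CALB2 at 48 h, of RUNX1T1 and of PITX1 are a description, since these genes passed the filter only or mainly through libraries where they are high.

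Across the 10 genes, the counts of calls between stages can be set beside those of all tested genes. In HBBko cells at 48 h relative to undifferentiated cells, 1 of 10 rose, against 25.1% of all tested genes, and 4 fell, against 40.1%. In HBBko cells at 5 d relative to 48 h, 5 rose, against 30.2%, and 3 fell, against 49.5%. In WT cells at 48 h 3 rose, against 23.5%, and 6 fell, against 41.4%, and at 5 d 4 rose, against 30.8%, and 4 fell, against 49.5%. With 10 genes these counts lie near the shares of all genes, and CALB2, which is among the falls at 48 h in both lines, passed the filter only through undifferentiated libraries. RUNX1T1, which is among the rises at each step in both lines, also passed it only through libraries where it is high. PITX1, among the rises at 5 d in both lines and at 48 h in WT cells, passed it mainly through such libraries. The medians over all genes of those 4 changes were -0.09, -0.20, -0.10 and -0.20, and with equal library sums they were -0.19, -0.56, -0.29 and -0.70. The share of called genes that rose was 38.5%, 37.9%, 36.1% and 38.4% as deposited. With equal sums it was 29%, 19.8%, 19.0% and 15.7%, and with median-of-ratios scaling 49.5%, 45.4%, 51.2% and 46.5%. The calls that changed with the scaling among the 10 genes are those given above for SSUH2, RBMS1, SLFN13, CALB2 and CYTL1.

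Some of these genes had profiles close to each other, measured as the root mean square distance over the 6 group means of log2(scaled TPM + 1), each gene centred on its own mean. RBMS1 and SLFN13 were each other's nearest gene among all 12005, at 0.43, and each is itself 1.38 and 1.16 from its own mean. PLS3, which encodes an actin-bundling plastin, was as near to RBMS1 (0.43), with 0.652, 0.760 and 0.585 scaled TPM in HBBko cells at the 3 stages against 13.5, 8.83 and 17.6 in WT cells. CDH6, a cadherin, was the second nearest to SLFN13 (0.48). EYA4 had no close neighbour: its nearest were SERPINB1 (0.98) and CYTL1 (1.11), which like it were higher in HBBko cells and fell with differentiation. Nearest to SERPINB1 was BEX1 (0.38), and nearest to CYTL1 the homeobox gene IRX4 (0.43) and MALT1 (0.47). SSUH2 lay nearest to TMEM161B (0.31) and TAF12 (0.35), a subunit of the general transcription factor TFIID. CALB2 lay nearest to CBFB (0.41), which encodes the partner of RUNX proteins, and to PHACTR1 (0.42), all 3 falling steeply at 48 h. RUNX1T1 lay nearest to AC104389.5 (0.27) and MYO5B (0.36), a vesicle motor. The nearest to CA3 were AC005326.1 and STC2 (0.54 each), and to PITX1 TREML2 and ATF3 (0.52 each), a stress-response transcription factor with 0.691, 1.58 and 33.1 scaled TPM in HBBko cells against 6.48, 6.60 and 76.5 in WT cells. These distances use the same libraries that chose the 10 genes and describe likeness only.

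The genes around the 10 were then compared between the lines, since they did not enter the choice. The 10 genes lie on 8 chromosomes, and the median log2 difference over all tested genes of these chromosomes was between -0.06 and 0.06 at every stage. Of the 95 tested genes within 1 Mb, 49.5% were called undifferentiated, 22.1% at 48 h and 49.5% at 5 d (limma, adjusted p under 0.05), against 43.3%, 18.7% and 51.3% of all tested genes in either direction. Higher calls were 48.4%, 50.8% and 51.7% of all called genes at the 3 stages as deposited, but 54.9%, 84.2% and 86.1% with equal library sums. No tested neighbour of EYA4, RBMS1, CA3, PITX1, CALB2 or RUNX1T1 differed by 1 or more on the log2 scale at any stage. Near the other 4 genes 6 did. The share of all tested genes that differ by that size at any stage is not given here, so nothing is read from these counts. SERPINB6 is described above, and GMDS, an enzyme of fucose synthesis 587 kb from SERPINB1, was lower in HBBko cells at 5 d (-1.55, limma, adjusted p = 5e-08). STK32B, a kinase gene 32.0 kb from CYTL1, was higher undifferentiated (0.85, limma, adjusted p = 3.6e-06) and at 48 h (1.26, adjusted p = 1.2e-07) and not called at 5 d (0.14, adjusted p = 0.22). LMCD1, a LIM domain gene 44.7 kb from SSUH2, was not called undifferentiated (0.25, limma, adjusted p = 0.11) and higher at 48 h (0.96, adjusted p = 5.9e-05) and 5 d (1.70, adjusted p = 1.3e-08). NSG1, 596 kb from CYTL1, was higher at 48 h (1.14, limma, adjusted p = 0.02). AC004134.1, 148 kb from SLFN13, averaged 0.619 scaled TPM in HBBko and 2.37 in WT cells at 5 d (log2 difference -1.04), but passed the filter only through WT libraries, so this is a description. Over all the lists of relatives and partners together, 35 of 87 other genes were tested. At the 3 stages 14, 4 and 22 of these 35 were called, beside 43.3%, 18.7% and 51.3% of all tested genes in either direction. These counts, like the shares of genes within 1 Mb, include SERPINB6, whose difference is a description. Whether these counts differ from the shares of all genes was not tested.

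**Figure D4:**
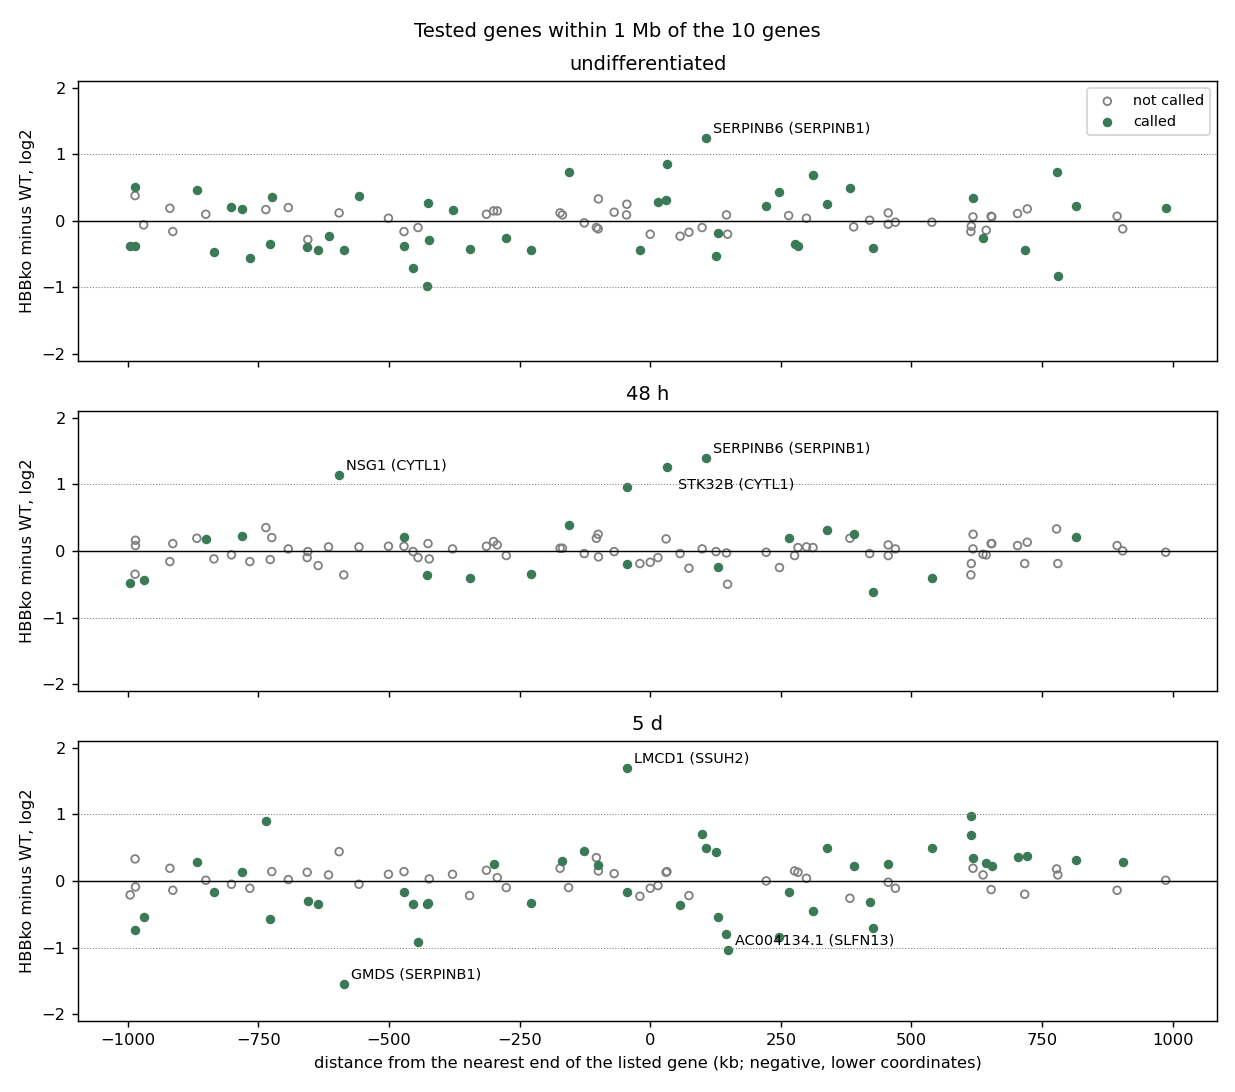
Difference between the lines (HBBko minus WT, log2(scaled TPM + 1)) of the 95 tested genes within 1 Mb of the 10 genes, against their distance in kb from the nearest end of that gene, at the 3 stages from top to bottom, filled where called at an adjusted p under 0.05 (limma) and dotted lines at 1 and -1. The points of 1 or more in size are named with the listed gene they lie near, and no other point reaches that size. The filled points of SERPINB6 and AC004134.1 are a description, since these genes would not have met the filter without the libraries where they are high.

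Reads could be shared with other genes for some of the 10, as far as GENCODE transcripts show. The share of 31-base words found in transcripts of another gene was 11.4% for SLFN13, 7.63% for PITX1, 7.20% for RBMS1, 6.14% for SERPINB1, 6.09% for SSUH2 and 5.96% for CA3, and under 1% for EYA4, RUNX1T1, CYTL1 and CALB2. The antisense gene TARID overlaps EYA4, C5orf66 and AC008406.3 overlap PITX1 and CA3-AS1 overlaps CA3. Without strand information their reads cannot be told apart where transcripts overlap. For PITX1 most shared words were those of AC008406.3, with 7.46% of all PITX1 words.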

How the data were processed

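RNA of 18 libraries in 6 groups was measured. Per the submitters' processing notes, the build was hg38 and the tools kallisto and sleuth, with no versions, and the transcript annotation is not given in the sources used here. Per gene symbol, the authors deposited a signal that its file name calls TPM; library sums of 783213 to 1508342 show that it was also scaled between libraries, in a step not stated. The plan had assumed plain TPM, and the test was kept. Columns are headed thal or wen; thal was read as HBBko and wen as WT, which rests on the names, and each thal library held less HBB than the wen libraries of its stage. The authors also deposited, per stage, log2 fold changes with standard errors and p-values or q-values, in sleuth's layout per the file headers. No read counts were used here, so depth is unknown and no counting interval is given.

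Genes at 1 scaled TPM or more in at least 3 libraries (12005) were fitted as log2(scaled TPM + 1) with limma 3.58.1 in R 4.3.3 (lmFit, eBayes with trend, all 18 libraries, a mean per group, 12 residual degrees of freedom). Tests were two-sided, with Benjamini-Hochberg adjustment over all tested genes and calls at an adjusted p under 0.05. The fit was tested on simulated data. No pair of libraries held equal values (within-group correlation 0.987 to 0.9979 across genes, which are not independent replicates). Positions, overlaps and 31-base words are from GENCODE v29 (GRCh38), in which 11814 tested genes had 1 position; promoters are from RefSeq. Alternatives were pseudocounts of 0.1 and 5, no filter, a filter of 5, equal sums, median-of-ratios scaling, the compared groups alone, a replicate block and leaving out each library. The 10 genes and all lists were chosen with earlier results of these data known. Named beside them are HBB, list genes called or nearest in family, genes within 1 Mb that differ by 1 log2 or more, and the 2 nearest profiles, of which some are not reported here; PF4, PPBP, CD3E and other genes named as near 0 were named after their values were seen.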

Additional observations from a re-analysis of the deposited data

Results flagged for a closer look

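SSUH2 stood out by opposite movement in the lines with no overlap of libraries between the stages. At 5 d relative to 48 h every HBBko library was higher and every WT library lower than the libraries of the earlier stage, with log2 changes of 0.82 in HBBko and -0.50 in WT cells. These changes differ by 1.32, a difference that was not tested because differences between the lines chose the gene. The HBBko rise was not called with equal sums (0.37, limma, adjusted p = 0.053) and the WT fall not with median-of-ratios scaling (-0.33, adjusted p = 0.058), the adjusted p running from 1.6e-06 to 0.053 and from 1.3e-05 to 0.058 over the alternatives. RBMS1 was also called in opposite directions at that step (0.23 in HBBko and -0.38 in WT cells), but its HBBko libraries overlapped between the stages.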

How the results depend on the processing

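Each value was recomputed under the alternatives. Stage counts of called genes stayed within 1.5 times of the values as reported, which were 7822 and 9565 in HBBko and 7790 and 9632 in WT cells. The number of genes called between the lines undifferentiated was 5197, and 2882 with the compared groups alone. At 48 h it was 2249, but 4187 with equal sums and 4275 with the compared groups alone, and 1173 to 3106 when 1 library was left out. It was 1173 without WT replicate 3 at 48 h, and 1430, 1440 and 1408 without HBBko replicate 1, 2 or 3 at 48 h. Of the 10 genes, 5 were called in HBBko cells at 48 h, 9 with the compared groups alone and 5 to 7 with 1 library left out. With the compared groups alone, the count over all tested genes at that step was also above the 7822 as reported. Whether the 10 genes gained more calls than all genes did was not tested. The change of SLFN13 in WT cells at 5 d reversed to -0.42 with equal sums. The cause of these shifts was not tested. With the replicate number as a block, 7908 and 9621 (HBBko) and 7870 and 9695 (WT) genes were called between stages and 5390, 2494 and 6313 between the lines, and the block changed no call of the 10 genes. The numbers were not taken as pairs: 10 of 45 same-numbered pairs had a correlation of deviations over 0.1 (-0.103 to 0.194), although 16 of 18 libraries correlated best with their own number. No difference between the lines among the 10 genes reversed under any alternative run, but of 30 such differences 22 moved beyond the replicate SD with a pseudocount of 0.1, 25 with a pseudocount of 5, 11 with equal sums, 2 with median-of-ratios scaling and none with a library left out. With depth unknown, the precision of values under 1 scaled TPM cannot be given.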
